A study of Mus musculus with 6 samples.

Results

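The wild type epithelium of the small intestine at embryonic day 13.5 (E13.5) was described from its 3 libraries, of 6 in the series; they were chosen by the genotype in the labels, which is wild type with no treatment. The other 3 libraries, from embryos that lack *Tcf7l1* in the gut epithelium, were not used and no comparison with them was made. Each wild type library came from 500 living cells of mouse embryos that carried EpCAM on their surface, sorted after collagenase digestion of the small intestine, and its cDNA was amplified for 15 PCR cycles before sequencing. The paper states that small intestines were dissected and cut into pieces, and it names no part of them. Its reading of *Lgr5* takes both anterior and posterior cells to be included. The series names the libraries biological replicates, but nothing says how many embryos gave the cells of a library. Strain, sex and litter are not given for the wild type embryos. The spread given as SD is therefore that between these 3 libraries (n = 3 throughout), and it may be technical in part.

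At this stage the gut tube is lined by an epithelium derived from the endoderm and surrounded by mesenchyme, and the villi are about to form. Transcription factors of the CDX, GATA, HNF and FOXA families set the identity of the intestinal epithelium, and hedgehog ligands made in the epithelium signal to the mesenchyme below. In the adult, stem cells in the crypts give rise to absorptive enterocytes and to secretory cells, which are goblet, Paneth, enteroendocrine and tuft cells.

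The 5 genes chosen to mark these cells were present in every library. *Epcam*, which encodes the surface protein used for the sort, had 2729, 2599.9 and 2942 CPM (counts per 1000000 counts of the library) in wild type 1, 2 and 3. *Krt8*, a keratin of simple epithelia, had 1468, 1490.3 and 1361 CPM. The 3 libraries lay close together for both genes. The transcription factor gene *Sox9*, active in intestinal progenitors, had 164, 203 and 145 CPM. *Cdx2*, the factor that specifies intestinal identity, had 40.7, 52.0 and 34.5 CPM, and the hedgehog ligand gene *Shh* had 22.0, 29.4 and 25.2 CPM. Wild type 2 was the highest library for *Sox9*, *Cdx2* and *Shh*, and *Epcam* was the highest in wild type 3. Per length, as CPM per kilobase of exons (RPKM), the levels were 1352 ± 84.7 for *Epcam*, 798 ± 38.2 for *Krt8*, 41.3 ± 7.24 for *Sox9*, 18.7 ± 3.91 for *Cdx2* and 9.50 ± 1.37 for *Shh* (mean ± SD). Each gap between neighbours in this order of RPKM exceeded the SD of both genes. Exons of another gene on the opposite strand covered 24.2% of the exon bases of *Shh*, and since the counting is not stated to use strand, part of its counts may belong to that gene. The genes lie in build mm9 at chromosome 17, 88035319 to 88050446, plus strand (*Epcam*), chromosome 15, 101827142 to 101834773, minus strand (*Krt8*), chromosome 11, 112643538 to 112649074, plus strand (*Sox9*), chromosome 5, 148112381 to 148118846, minus strand (*Cdx2*) and chromosome 5, 28783355 to 28793641, minus strand (*Shh*). Since *Epcam* was used for the sort and the markers were chosen with results of these data known, their presence is a description only.

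The 100 bases before the annotated start of the 5 marker genes, and of 2 genes with 0 counts in all libraries, are shown because the sequence around the start differed with the level of a gene, as given further on. The genes with 0 counts are the insulin gene *Ins2* and the trypsin gene *Prss1*, both genes of the pancreas, and they were chosen after their values and sequences were seen. The sequences were read from the mm9 genome, 5′ to 3′ on the strand of the gene, and capitals mark each CG dinucleotide.
Epcam (chr17:88035219-88035318, plus strand): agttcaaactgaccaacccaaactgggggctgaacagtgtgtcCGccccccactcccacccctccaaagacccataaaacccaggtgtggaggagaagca
Krt8 (chr15:101834774-101834873, minus strand): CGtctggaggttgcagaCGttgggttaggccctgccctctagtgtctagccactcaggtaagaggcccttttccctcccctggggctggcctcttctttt
Sox9 (chr11:112643438-112643537, plus strand): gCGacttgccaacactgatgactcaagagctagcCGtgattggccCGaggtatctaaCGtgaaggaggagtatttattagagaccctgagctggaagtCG
Cdx2 (chr5:148118847-148118946, minus strand): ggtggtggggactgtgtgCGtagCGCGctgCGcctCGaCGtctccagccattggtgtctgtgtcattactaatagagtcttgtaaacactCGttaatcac
Shh (chr5:28793642-28793741, minus strand): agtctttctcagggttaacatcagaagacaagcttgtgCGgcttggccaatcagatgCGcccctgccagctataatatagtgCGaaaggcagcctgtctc
Ins2 (chr7:149865598-149865697, minus strand): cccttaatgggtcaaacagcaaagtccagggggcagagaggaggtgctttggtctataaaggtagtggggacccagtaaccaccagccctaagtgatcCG
Prss1 (chr6:41408831-41408930, plus strand): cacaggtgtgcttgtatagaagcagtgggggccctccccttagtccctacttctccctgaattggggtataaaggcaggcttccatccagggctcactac
The 100 bases held 7 CG dinucleotides in *Cdx2*, 5 in *Sox9*, 3 in *Shh*, 2 in *Krt8* and 1 in *Epcam* and *Ins2*, and *Prss1* held 0. These CG counts did not follow the level: *Epcam*, the highest of the 5 markers by CPM, held 1 like *Ins2*, while *Cdx2* held 7. The letters TATAAA, searched on the strand of the gene in the 50 bases before its start, were found in *Ins2* and *Prss1* and in none of the 5 markers. Among all genes with 0 counts only 6.05% held these letters, against 3.08% of all genes, so *Ins2* and *Prss1* are not typical of genes at 0.

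The libraries were sequenced to 19909798, 19787517 and 20397278 counts in wild type 1, 2 and 3. A gene with 0 counts in all libraries can have been present at up to 0.0499 CPM (3 of the 60094593 counts), a limit that covers counting error only, since reads amplified by PCR are not independent molecules. Between pairs of libraries the log2 CPM of 11854 genes correlated with Pearson's r of 0.987 to 0.989, a description of genes that share their library and are not replicates. Wild type 3 stood somewhat apart. It was the lowest library for 46.8% of the 10783 genes with a mean count of at least 50, against 27.2% for wild type 1 and 26.0% for wild type 2, and its long genes were lower, as given with the spread. These values used library totals alone. The factors of another scaling, TMM, were 1.01, 1.02 and 0.971 in wild type 1, 2 and 3, and they would raise wild type 3 against the others. How often a library was the lowest thus depends on the scaling, here and below. The marker lists below were written by hand from textbook knowledge. The median CPM over all 23366 genes was 1.14, and 50.7% of them reached a mean CPM of 1, the values beside which each list should be read.

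Of 23366 genes, 11854 were expressed, here a mean CPM of at least 1. A count was present in all 3 libraries for 13550 genes, in 2 libraries for 1094 and in 1 library for 1521, and 7201 genes had 0 counts. Of the expressed genes, 11833 had a count in every library. The levels ran from 4311 genes with a count but a mean CPM under 1, over 3299 at 1 to 10, 6032 at 10 to 100 and 2431 at 100 to 1000, to 92 genes at 1000 CPM or more. The counts were spread over many genes: 226 genes held 25% of them, 935 held 50%, 2619 held 75% and 4930 held 90%. The 100 genes with the highest mean CPM took 16.1%, 15.9% and 16.8% of the counts in wild type 1, 2 and 3 (16.3 ± 0.455%).

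The most abundant transcripts by counts served energy metabolism, translation, protein folding and the actin skeleton. *Atp5b*, a subunit of the mitochondrial ATP synthase, had 3819.6, 3825 and 3944 CPM, and the lactate dehydrogenase gene *Ldha* had 3657, 3904 and 3801 CPM. The translation factor gene *Eif5a* had 3679, 3649 and 3958 CPM and was highest in wild type 3. *Ftl1*, the ferritin light chain, the nucleic acid binding protein gene *Cnbp*, the histone variant gene *H3f3b* and the chaperone gene *Hsp90ab1* followed with means of 3413, 3239, 2971 and 2967 CPM. *Epcam* itself was the ninth gene of the whole table by mean CPM. The next in this order were *Hnrnpk* (2651 CPM), which encodes an RNA-binding protein, the elongation factor gene *Eef1a1* (2627), the ATP synthase gene *Atp5a1* (2616), *Pdia3* (2513) and *Hspa5* (2461), whose products fold proteins in the endoplasmic reticulum, *Cfl1* (2435) and *Pfn1* (2333), which regulate actin, the glycolytic enzyme genes *Pkm* (2391) and *Aldoa* (2315), the ribosomal protein gene *Rpl4* (2296) and *Gnas* (2274), a G protein subunit gene with 22.0% of its exon bases overlapped on the opposite strand.

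CPM gives long genes more counts, so the order per length differed. By RPKM, *Ftl1* (2547 ± 94.4), *Pfn1* (2274 ± 102) and *Cfl1* (2121 ± 148) led the table, and *Pfn1* and *Cfl1* differed by less than their SDs added together. *Rpl4* (1615 ± 73.5), *Eif5a* (1583 ± 71.6) and the ferritin heavy chain gene *Fth1* (1389 ± 76.8) came next in RPKM, followed by *Epcam* (1352 ± 84.7), whose SD covered the gap to *Fth1*. Genes of cytosolic ribosomal proteins, recognised by symbol, numbered 84, of which 79 were expressed and 4 had 0 counts, and they took 2.19%, 2.29% and 2.45% of the counts in wild type 1, 2 and 3. Only 2 of the 84 were among the 100 highest genes by CPM. Many of these genes have near-identical pseudogenes, and since only uniquely mapping reads were counted, their levels are uncertain. The table held 0 symbols of the mitochondrial genome.

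Genes of the epithelial state were expressed almost without exception. Of 37 keratin, junction and related genes, 36 were expressed and 21 reached 100 CPM, with a median of 139 CPM. The claudin gene *Cldn7* had 1363, 1355 and 1434 CPM, the keratin genes *Krt19* and *Krt18* had 1345, 1406 and 1301 (*Krt19*) and 1206, 1156 and 1211 (*Krt18*) CPM, and *Spint2*, which encodes a protease inhibitor, had 1255, 1245 and 1261 CPM. The E-cadherin gene *Cdh1* had 232, 271 and 189 CPM and was lowest in wild type 3, as were the catenin genes *Ctnnb1* (599, 670.1 and 534) and *Ctnna1* (347, 359.7 and 308). *Cldn15*, a claudin of the intestine, was the only listed gene under 1 CPM, with 0.653, 0.101 and 0.294. The summed level of the list was 15666, 15589 and 15299.5 CPM.

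**Figure D1:**
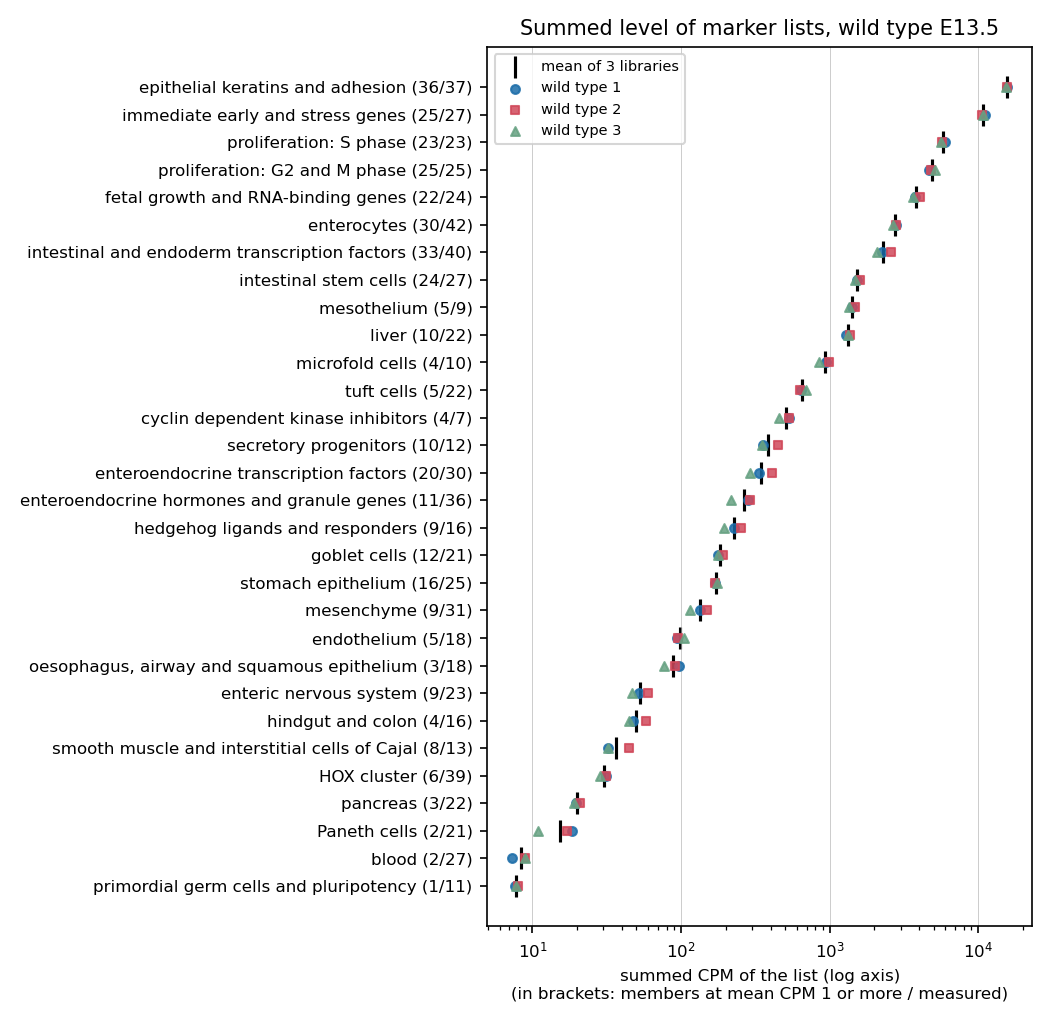
Summed CPM (log axis) of each marker list in wild type 1, 2 and 3 (points) with the mean of the 3 libraries (bar); brackets give the members at a mean CPM of at least 1 and those measured. Epithelial, proliferation and early response genes lay between 4673 and 15666 CPM, while the pancreas, Paneth cell, blood and germ cell lists lay at 19.9, 15.4, 8.40 and 7.79 CPM on average, and most of the sums of the mesothelium, microfold and tuft cell lists came from 1 member each.

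Among 726 transcription factor genes, recognised by symbol in 38 families, 394 were expressed, 233 reached 10 CPM and 53 reached 100 CPM, while 154 had 0 counts. Early response factors and the inhibitor of differentiation *Id2* led by counts. *Id2* had 939, 982 and 1149.9 CPM and was highest in wild type 3. *Fos* had 722, 684 and 687, *Egr1* 631, 661 and 618, *Atf3* 681, 530.5 and 678 and *Klf6* 682, 603 and 580.3 CPM. All 4 are genes that many cells switch on within minutes of stimulation or stress. The Notch target *Hes1*, a repressor of secretory fate, had 540.2, 447 and 558 CPM, and the epithelial ETS factor gene *Elf3* had 509, 517 and 452 CPM. The next by mean CPM were the AP-1 genes *Junb* (435), *Jund* (379, 18.9% of its exon bases overlapped) and *Jun* (309.8), the growth and damage regulators *Myc* (374) and *Trp53* (362), the cell cycle factors *E2f4* (336) and *Tfdp1* (279.7), the intestinal homeobox gene *Isx* (332), *Xbp1* (311) and *Atf4* (273), which act in the unfolded protein and stress responses, *Hif1a* (311), which responds to low oxygen, the epithelial factor gene *Klf5* (292) and *Hbp1* (267), an HMG box gene. Of these 20, *Klf5* had the largest SD for its mean, at 245, 346 and 285 CPM. *Atf3* and *Jund* (407, 409 and 323 CPM) followed. *Hif1a*, *Xbp1*, *Isx*, *Myc* and *Trp53* had an SD of at most 6.34 CPM.

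Per length, *Id2* stood well above every other factor gene, at 739, 773 and 905 RPKM. *Atf3* (317 ± 43.4 RPKM), *Fos* (297 ± 8.93) and *Hes1* (253 ± 29.1) followed, and *Atf3* and *Fos* did not differ beyond their SD, and neither did *Hes1*, *Elf3* (246 ± 17.6) and *Junb* (240.5 ± 9.50). *Egr1* (205 ± 7.20 RPKM), *Klf5* (169.8 ± 29.5), *E2f4* (169 ± 7.19) and *Atf4* (158 ± 3.39) closed the 10 highest, and the SD of *Klf5* covered its gap to *E2f4* and *Atf4*. By family, AP-1, ATF and CREB genes summed to 3599 ± 104 CPM with 27 of 32 expressed, HES, HEY and ID genes to 1808 ± 155 CPM with 7 of 13 expressed, and KLF and SP genes to 1399 ± 69.0 CPM with 17 of 26 expressed. All 10 E2F and DP genes, all 4 TEAD genes, all 4 NFI genes and all 6 GRHL and TFCP2 genes were expressed. T-box genes (1 of 16), LIM homeobox genes (2 of 12), POU genes (2 of 15) and AP-2 genes (0 of 5) were mostly under 1 CPM.

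**Figure D2:**
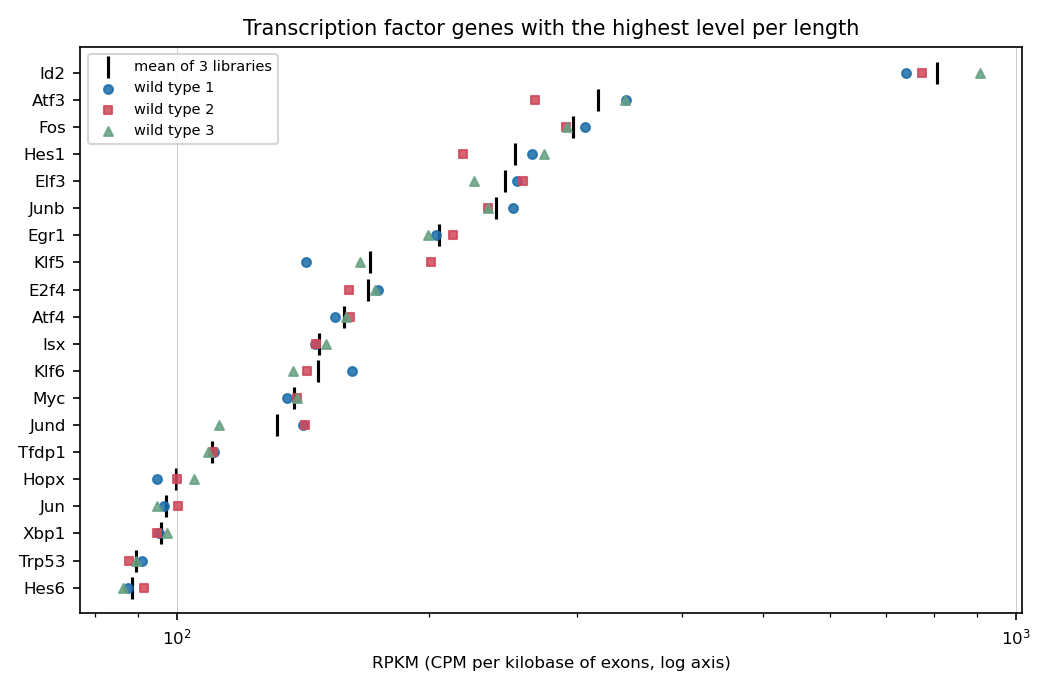
RPKM (log axis) of the 20 transcription factor genes with the highest level per length, in wild type 1, 2 and 3 (points) with the mean of the 3 libraries (bar). *Id2* lies between 739 and 905 RPKM in the 3 libraries, above *Atf3* and *Fos* in each of them, and the libraries are furthest apart for *Klf5*.

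The transcription factors known from endoderm and intestine formed a broad set. Of 40 listed, 33 were expressed, 26 reached 10 CPM and the median was 18.7 CPM. *Isx*, a repressor of genes for vitamin A uptake, had 329, 329.6 and 338 CPM. *Hnf4g* and *Hnf4a*, nuclear receptors of enterocytes, had 219, 236 and 188 (*Hnf4g*) and 77.5, 80.6 and 56.3 (*Hnf4a*) CPM. The pioneer factor gene *Foxa1* had 157, 214 and 155 CPM and *Prdm1*, a repressor of the adult enterocyte programme in the fetal gut, had 144, 165 and 152 CPM. *Gata4*, the factor of the proximal intestine, had 106, 118 and 85.9 CPM, and *Gata6* and *Gata5* had 51.2, 73.2 and 51.1 (*Gata6*) and 46.2, 48.4 and 38.1 (*Gata5*). Per length, *Gata4* (26.4 ± 4.17 RPKM) exceeded *Gata6* (18.3 ± 3.99 RPKM) by more than the SD of either, but by slightly less than their SDs added together. *Cdx1* (55.8, 65.2 and 40.0 CPM), like *Cdx2*, was highest in wild type 2 and lowest in wild type 3. *Pdx1*, a factor of duodenum and pancreas, had 11.6, 11.9 and 9.85 CPM. The TCF/LEF genes, whose products carry WNT signals to DNA, differed among themselves: *Tcf7l2* had 65.2, 77.9 and 58.0 CPM, *Tcf7l1* 25.5, 25.7 and 18.8 and *Tcf7* 16.3, 14.6 and 14.8, while *Lef1* had 0 counts. *Sox2*, which marks the foregut, had 0.603, 0.354 and 0.539 CPM, *Sox17*, a factor of early endoderm, had 5 counts in all, and *Cdx4*, a factor of the posterior gut, also had 5. Exons on the opposite strand covered 54.6% of *Sox4* (17.6 CPM).

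HOX genes, which mark position along the body axis, were low. Of 39 measured, 6 were expressed and 16 had 0 counts, and the summed level was 31.3, 31.0 and 28.3 CPM. The expressed genes included *Hoxb2* (8.89, 7.68 and 7.94 CPM), *Hoxb7* (8.49, 5.36 and 6.81), *Hoxa3* (2.21, 2.43 and 1.57), *Hoxa5* (2.11, 2.07 and 1.76) and *Hoxa2* (0.653, 2.17 and 1.57). These lie in the A and B clusters. Exons of another gene on the opposite strand covered 49.4% of *Hoxb2* and 25.04% of *Hoxa3*. In the A cluster, *Hoxa4* (0.929 CPM), *Hoxa10* (0.852), *Hoxa9* (0.184), *Hoxa7* (0.0839) and *Hoxa13* (0.0817) stayed under 1 CPM, and *Hoxa6* and *Hoxa11* had 0 counts. In the B cluster, *Hoxb3*, *Hoxb6*, *Hoxb5*, *Hoxb4*, *Hoxb8*, *Hoxb9* and *Hoxb1* lay between 0.215 (*Hoxb1*) and 0.963 CPM (*Hoxb3*), and *Hoxb13* had 0 counts. In the C cluster *Hoxc4* (0.654 CPM), *Hoxc8* (0.185) and *Hoxc5* (0.0981) had a count and *Hoxc6*, *Hoxc9*, *Hoxc10*, *Hoxc11*, *Hoxc12* and *Hoxc13* had 0. In the D cluster *Hoxd3* (0.250 CPM) and *Hoxd4* (0.184) had a count and *Hoxd1*, *Hoxd8*, *Hoxd9*, *Hoxd10*, *Hoxd11*, *Hoxd12* and *Hoxd13* had 0.

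Among hedgehog genes the ligands were present and most genes that respond to them were low. *Ihh*, the second intestinal ligand, had 147, 157 and 122 CPM, and per length it lay above *Shh*, at 57.6 ± 7.23 against 9.50 ± 1.37 RPKM, a gap larger than the SD of both. *Smo*, the signal transducer, had 21.5, 29.97 and 21.6 CPM and *Hhat*, which attaches a lipid to the ligand, had 8.99, 8.64 and 8.78 CPM. *Sufu* and *Gli3*, an inhibitor of the pathway and a factor it regulates, had 12.3, 8.59 and 5.44 (*Sufu*) and 8.49, 5.15 and 4.22 (*Gli3*) CPM. Both were lowest in wild type 3. The receptor *Ptch1*, itself induced by the signal, had 3.57, 5.76 and 1.72 CPM, which is 0.560 ± 0.308 RPKM, and *Gli1*, a target that marks responding cells, had 6 counts in all, 0.101 CPM. *Hhip*, another target, and *Disp1*, which releases the ligand, had 0 counts.

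Absorptive genes were present in part. Of 42 enterocyte genes, 30 were expressed, with a median of 22.8 CPM. The villus membrane linker gene *Ezr* had 513, 497 and 399.9 CPM and was lowest in wild type 3. *Apoa1*, the main protein of high density lipoprotein, had 267, 261 and 287 CPM, the peptidase gene *Dpp4* had 271, 255 and 235 and the microvillus gene *Vil1* had 126, 133 and 103. The fatty acid binding protein genes *Fabp2* and *Fabp1* had 109, 116 and 128 (*Fabp2*) and 79.9, 76.2 and 89.9 (*Fabp1*) CPM, and *Alpi*, the intestinal alkaline phosphatase, had 41.3, 34.3 and 40.2 CPM. Among digestive enzymes and carriers the levels were uneven. The peptidase genes *Enpep*, *Anpep* and *Mep1a* had means of 63.8, 62.7 and 31.0 CPM, the glucose carrier gene *Slc5a1* 48.0, the maltase gene *Mgam* 35.8 and the amino acid carrier gene *Slc7a9* 31.4. Others were near or at 0: lactase (*Lct*) had 8 counts over the 3 libraries, sucrase-isomaltase (*Sis*) 2 and the ileal *Fabp6* 4, while trehalase (*Treh*), the amino acid carrier *Slc6a19*, the peptide carrier *Slc15a1* and *Cyp3a11* had 0. *Apoa4* (11.3, 11.6 and 16.0 CPM) was overlapped on the opposite strand over 34.8% of its exon bases.

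Of 27 genes known from adult intestinal stem cells, 24 were expressed, with a median of 16.0 CPM. The MYC target *Cdca7* had 377, 349 and 342 CPM, the cholesterol esterification gene *Soat1* 234, 233 and 254, and the homeodomain gene *Hopx* 199, 209.8 and 220.4, with 19.5% of its exon bases overlapped on the opposite strand. *Lgr4*, a receptor for R-spondins, had 118, 117 and 116 CPM and its relative *Lgr5*, the stem cell marker, had 32.9, 31.5 and 22.5 CPM. Per length, *Lgr4* was above *Lgr5*, at 19.9 ± 0.164 against 2.82 ± 0.553 RPKM. The membrane glycoprotein gene *Prom1* had 95.9, 83.5 and 98.3 CPM and the WNT-dependent stem cell factor *Ascl2* 29.6, 34.1 and 34.2 CPM. *Smoc2* fell into a wider range, 46.5, 39.9 and 23.3 CPM, lowest in wild type 3. *Olfm4* (2.16, 4.14 and 4.27 CPM) and the WNT target *Axin2* (1.56, 1.92 and 0.784 CPM) were present at low levels.

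Regulators of the secretory lineages were present, most of them at low levels, while several of their products had 0 counts. Of 12 genes of secretory progenitors, 10 were expressed and 3 reached 10 CPM, with a median of 4.16 CPM. The list was led by *Foxa1*, which made up 45.4% of its summed level and is not limited to these cells. *Hes6*, a factor that opposes HES1, followed with 158, 165 and 156 CPM. *Atoh1*, the factor that secretory fate depends on, had 1.76, 1.67 and 1.18 CPM, and the Notch ligand genes *Dll1* and *Dll4* had 3.82, 3.23 and 4.12 (*Dll1*) and 3.72, 4.14 and 3.48 (*Dll4*) CPM. Of 21 goblet cell genes, 12 were expressed: *Agr2*, needed to fold mucins, had 45.6, 44.5 and 53.1 CPM, *Foxa3* 48.0, 55.0 and 39.2, the mucin glycosylation gene *Galnt12* 28.3, 31.2 and 27.1 and *Fcgbp*, a component of mucus, 13.8, 19.5 and 14.0. *Fxyd3* (10.1 CPM) was overlapped on the opposite strand over 43.2% of its exon bases, and *Creb3l1*, a factor of the secretory pathway, had 8.74, 7.88 and 6.81 CPM. The main intestinal mucin gene *Muc2* and the goblet cell product genes *Zg16* and *Spink4* had 0 counts.

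Enteroendocrine transcription factors varied between the libraries. Of 30 listed, 20 were expressed and 8 reached 10 CPM, with a median of 2.29 CPM, and *Foxa1* alone made up 50.8% of the summed level. Besides *Foxa1*, they included *Rfx6* (38.3, 28.9 and 28.2 CPM), *Nkx6-3* (26.8, 22.1 and 12.6), *Tox3* (19.2, 20.8 and 14.6), *Sox4* (15.5, 24.9 and 12.5) and *Foxa2* (16.0, 14.7 and 14.9). *Neurog3*, the factor that starts the endocrine programme, had 3, 179 and 90 counts, and its target *Pax4* had 0, 107 and 82. Both were near or at 0 in wild type 1 and present in the other libraries. *Isl1* ran the other way, with 140, 30 and 52 counts. Of the 22 members with at least 30 counts in all, 14 differed by more than 2-fold between the highest and the lowest library, 14 were highest in wild type 2, 7 in wild type 1 and 1 in wild type 3, and 15 were lowest in wild type 3. Over all 12648 genes with at least 30 counts, 12.9% differed by more than 2-fold, 38.9% were highest in wild type 2 and 46.3% lowest in wild type 3, and over the 5196 genes with 30 to 1000 counts these shares were 30.8%, 44.3% and 49.3%. Of the members, 5 had more than 1000 counts. Low genes vary more in general: the median coefficient of variation was 30.2% for the 1170 genes with a mean count of 10 to 50, against 5.77% for the 866 genes with 5000 or more. *Nkx6-1*, *Myt1l*, *Lmx1a*, *Scrt1* and *Nkx2-1* had 0 counts, and exons on the opposite strand covered 17.7% of *Neurog3*.

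Few hormone and granule genes were expressed. Of 36 measured, 11 were expressed, with a median of 0.302 CPM. *Ddc*, an enzyme of serotonin and dopamine synthesis that is also found outside endocrine cells, had 139, 140.3 and 130.3 CPM and made up 51.8% of the summed level. The hormone processing enzyme gene *Cpe* had 56.1, 42.1 and 39.3 CPM, the vesicle fusion gene *Vamp2* 14.8, 17.4 and 12.5, the hormone gene *Sct* (secretin) 12.9, 12.4 and 11.8 and the calcium channel gene *Cacna1a* 8.04, 7.08 and 7.60. *Chgb*, which encodes a granule protein, ranged from 432, 1020 and 4 counts in wild type 1, 2 and 3, so its mean of 24.5 CPM described none of them. The peptide YY gene *Pyy* was present in wild type 1 alone, with 116, 0 and 0 counts. *Gcg*, *Nts*, *Tac1*, *Scg2* and *Resp18* had 0 counts, and *Ghrl*, *Gip*, *Sst*, *Insl5* and the serotonin enzyme gene *Tph1* had 1 count each.

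Tuft and Paneth cell genes were almost absent. Of 22 tuft cell genes, 5 were expressed, and the surface glycoprotein gene *Cd24a* (632, 616 and 680.1 CPM), which progenitors and many other cells also express, made up 98.2% of the summed level. *Pou2f3*, the tuft cell master factor, had 3.01, 5.71 and 1.91 CPM, the phospholipase gene *Plcg2* had 3.42 ± 1.48 (mean ± SD) and *Sh2d7* had 1.81, 2.07 and 1.47. *Ltc4s*, a leukotriene enzyme gene with 26.1% of its exon bases overlapped, had 1.66, 1.42 and 1.57 CPM and *Avil*, an actin regulator, 0.552, 1.06 and 0.0490. The marker *Dclk1* had 0, 12 and 0 counts. The taste signalling genes *Trpm5*, *Gnat3* and *Plcb2* and *Il25*, *Rgs13*, *Gfi1b* and *Hmx3* had 0. Of 21 Paneth cell genes, *Reg4* (16.6, 12.8 and 8.33 CPM), which enteroendocrine cells also express, and the lysozyme gene *Lyz1* (0.151, 1.52 and 1.52) were expressed, and 14 had 0 counts: 9 defensin genes (*Defa5*, *Defa17*, *Defa20* to *Defa24* and *Defa-rs7* among them), *Ang4*, *Wnt3*, *Itln1*, *Pla2g2a* and *Reg3a*. The defensin genes have near-identical copies, so their counts are uncertain. Of 10 microfold cell genes, 4 were expressed, and *Marcksl1* (835, 895 and 760.0 CPM), which is not limited to these cells, made up 89.6% of the sum, followed by *Anxa5* (83.7, 70.5 and 68.6), *Tnfrsf11a* (14.0, 15.2 and 10.1) and *Ccl20* (7.48, 7.08 and 7.40). The defining marker *Gp2* had 0 counts, as did *Aif1*.

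Genes of neighbouring endodermal organs differed by organ. Stomach genes were low but broad, with 16 of 25 expressed and a median of 2.29 CPM. The protease gene *Ctse* had 41.0, 44.1 and 52.9 CPM, *Vsig1* 26.6, 30.3 and 33.9, *Muc1* 18.4, 17.2 and 17.9, the claudin gene *Cldn18* 16.0, 18.2 and 13.5 and the pepsinogen gene *Pgc* 12.2, 6.37 and 12.3. All 3 gastrokine genes had counts in each library, at means of 2.29 (*Gkn1*), 3.13 (*Gkn2*) and 2.47 CPM (*Gkn3*). *Tff1*, *Muc6*, *Gif*, *Atp4b* and *Capn9* had 0 counts. In the liver list 10 of 22 were expressed: the urea cycle gene *Cps1*, which the intestine also uses, had 450.1, 555 and 413 CPM, *Ambp* 266, 264 and 295, the transferrin gene *Trf* 248, 217 and 247, the fetal serum protein gene *Afp* 133, 155 and 167, the transthyretin gene *Ttr* 63.5, 53.1 and 64.5 and the protease inhibitor genes *Serpina1b* and *Serpina1a*, near-identical copies of each other, 74.8, 73.6 and 83.98 (*Serpina1b*) and 29.4, 29.9 and 33.3 (*Serpina1a*). The albumin gene *Alb*, the defining gene of hepatocytes, had 1, 6 and 0 counts, and *Ahsg* and *Hp* had 0.

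The pancreas list had 3 of 22 expressed, namely *Pdx1*, the elastase gene *Cela1* (6.78, 6.32 and 6.52 CPM) and *Nkx2-2* (0.0502, 1.87 and 2.06 CPM), and 16 at 0 counts. Those at 0 were the insulin genes *Ins1* and *Ins2*, *Gcg*, the enzyme genes *Cpa1*, *Cela2a*, *Cela3b*, *Cel*, *Pnlip*, *Prss1*, *Try4* and *Amy2a5*, the factor genes *Ptf1a*, *Nkx6-1* and *Rbpjl*, and *Gp2* and *Zg16*. Of 18 genes of oesophagus, airway and squamous epithelium, 3 were expressed: the hindlimb homeobox gene *Pitx1* with 87.6, 83.2 and 71.0 CPM, the keratin gene *Krt15* with 5.98, 4.25 and 2.94 and *Pax8* with 1.46, 1.01 and 0.833. *Trp63* and *Krt14* of basal cells, *Sftpb*, *Sftpc* and *Scgb1a1* of the lung, *Nkx2-1*, *Foxe1* and *Tg* of thyroid and lung, and *Dsg3* had 0 counts. Of 16 hindgut and colon genes, 4 were expressed, among them *B4galnt2*, a glycosyltransferase gene with 15.3% of its exon bases overlapped, with 29.4, 34.0 and 24.8 CPM, the T-box gene *Tbx3* with 7.43, 11.9 and 7.75, and the ligand gene *Wnt11* with 4.12, 3.84 and 5.79. The colon carbonic anhydrase genes *Car1* and *Car4* and the posterior genes *Hoxa11*, *Hoxb13*, *Hoxc10*, *Hoxd11*, *Hoxd12* and *Hoxd13* had 0 counts.

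Most genes known from cells outside the epithelium were under 10 CPM. The share expressed was above that of all genes (50.7%) in the smooth muscle and mesothelium lists and below it in the others. In RNA from pooled cells, fewer cells of a type and less RNA per cell cannot be told apart. Of 31 mesenchyme genes, 9 were expressed, and the summed level was 135, 149.5 and 115 CPM. The filament gene *Vim* (63.1, 75.3 and 61.3 CPM) and the fibronectin gene *Fn1* (46.0, 51.9 and 43.5 CPM), both also made by other cells, were the 2 members at 10 CPM or more. *Col5a1* (3.23 CPM), *Postn* (2.29), *Barx1* (1.94) and *Pdgfrb* (1.80) followed. The defining collagen genes *Col1a1* and *Col1a2* had 18, 0 and 2 (*Col1a1*) and 5, 0 and 5 (*Col1a2*) counts and *Pdgfra* 23, 6 and 21, while *Nkx3-2*, *Foxl1*, *Thy1* and *Meox2* had 0. In the smooth muscle and interstitial cell list, 8 of 13 were expressed, with the receptor gene *Kit* at 15.1, 16.6 and 10.7 CPM, and the smooth muscle genes *Acta2*, *Myl9*, *Tagln* and *Actg2* at means of 4.65, 4.52, 3.27 and 2.14 CPM, the channel gene *Ano1* at 1.31, 7.58 and 4.07 CPM, and *Myocd*, the master factor, at 0 counts.

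The mesothelium list had 5 of 9 expressed, but *Krt19*, an epithelial keratin, made up 95.6% of its sum. *Upk3b*, a marker of mesothelium and urothelium, had 23.3, 19.9 and 16.5 CPM, *Msln* 20.6, 18.4 and 11.2, *Podxl* 16.2, 16.4 and 14.6 and *Gpm6a* 8.89, 7.48 and 8.38. The mesothelial factor gene *Wt1* had 0, 0 and 4 counts and *Tbx18* had 0. Of 18 endothelium genes, 5 were expressed, led by *Egfl7* (65.2, 68.3 and 77.5 CPM) and *Ramp2* (21.4, 16.8 and 21.4 CPM), both at 10 CPM or more. The defining genes *Cdh5*, *Kdr*, *Tek*, *Flt1*, *Emcn*, *Cldn5* and *Erg* had 0 counts, and *Lyve1* (2.89 CPM), *Sox18* (2.29) and *Prox1* (1.45) were low. Of 27 blood genes, the macrophage gene *Cd68* (2.06, 3.28 and 4.41 CPM) and the embryonic globin gene *Hbb-y* (1.10, 1.52 and 1.03 CPM) were expressed. The leukocyte gene *Ptprc*, *Aif1*, the red cell factor gene *Tal1* and 5 globin genes (*Hba-a1*, *Hba-a2*, *Hbb-b1*, *Hbb-b2* and *Hbb-bh1*) had 0 counts, and some globin genes are near-identical copies whose counts are uncertain.

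Of 23 genes of the enteric nervous system, 9 were expressed. *Gap43*, a growth cone gene, had 19.3, 17.4 and 13.1 CPM, *Erbb3* 8.74, 9.91 and 11.2, the RNA-binding protein gene *Elavl4* 8.44, 8.19 and 7.99 and *Stmn2* 2.31, 5.96 and 3.04. The defining factor gene *Sox10* had 0, 8 and 0 counts and the receptor gene *Ret* 7, 9 and 3, and *Elavl3*, *Foxd3*, *Th* and *Dbh* had 0. Of 11 germ cell and pluripotency genes, *Zfp42* was the only one expressed, with 6.13, 6.11 and 5.98 CPM, nearly alike in the 3 libraries. *Pou5f1* had 1 count in all, and *Nanog*, *Dppa5a* and *Tdgf1* had 0.

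The cells carried a proliferating profile. All 23 S phase genes and all 25 genes of the G2 and M phases were expressed, with medians of 215 and 189 CPM. The replication licensing gene *Mcm6* had 1130.3, 991 and 967 CPM and the histone mRNA-binding gene *Slbp* 553, 522 and 587. The ribonucleotide reductase genes *Rrm1* and *Rrm2* had 447, 455 and 456 (*Rrm1*) and 429.8, 423 and 509.5 (*Rrm2*) CPM. *Mcm6* was highest in wild type 1, while *Rrm2* was highest in wild type 3. The mitotic cyclin gene *Ccnb1* had 343, 352 and 396 CPM, *Ccnb2* 278, 279.6 and 333, the ubiquitin enzyme gene *Ube2c* 249, 312 and 335 (22.8% of its exon bases overlapped) and *Birc5* 248, 278 and 299, and all 4 were highest in wild type 3. *Cdc20*, an activator of the anaphase complex, had 296, 313 and 269 CPM and was lowest there. Of 7 genes for inhibitors of cyclin dependent kinases, 4 were expressed: the imprinted *Cdkn1c* with 391, 389 and 323 CPM, the p53 target *Cdkn1a* with 114, 111 and 105, *Cdkn2b* with 26.4, 30.1 and 26.4 and *Cdkn2d* with 1.10, 1.42 and 2.11. *Cdkn1b* (0.848 CPM), *Cdkn2c* (0.318) and *Cdkn2a* (0.117) stayed under 1 CPM.

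Fetal growth genes and early response genes were also high. Of 24 fetal genes, 22 were expressed, with a median of 47.8 CPM. The imprinted noncoding RNA gene *H19* had 1206, 1388 and 1254 CPM and its neighbour *Igf2*, a growth factor gene, 520.2, 658 and 516. Wild type 2 was the highest for both. The chaperone gene *Clu* had 391, 363 and 396 CPM, *Igf2bp3* 359.6, 398 and 328 (35.2% of its exon bases overlapped) and *Igf2bp2* 364, 369 and 344, the last 2 encoding fetal RNA-binding proteins, and *Lin28a*, a factor of earlier stages, had 1 count in all. Of 27 early response and stress genes, 25 were expressed, with a median of 144 CPM. Beside the chaperone genes *Hspa5* and *Hspa8* (1901, 1781 and 1871 CPM), *Ier2* had 1471, 1435 and 1507 CPM, with *Fos*, *Egr1* and *Atf3* as above. The heat shock genes *Hspa1a* and *Hspa1b*, near-identical copies, were low, at 1.005, 1.31 and 1.23 (*Hspa1a*) and 1.96, 2.98 and 2.11 (*Hspa1b*) CPM. What the dissociation and sort of the cells added to these levels was not tested.

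*Xist*, the RNA of the inactive X chromosome, had 0 counts in the 3 libraries, while genes of the Y chromosome were present in each. *Ddx3y*, an RNA helicase gene, had 113, 103 and 90.1 CPM, the translation factor gene *Eif2s3y* 94.8, 90.8 and 99.2, and the histone demethylase genes *Uty* 38.9, 40.6 and 39.7 and *Kdm5d* 18.9, 24.2 and 13.9. *Zfy1* and *Zfy2* had 0 counts. Exons of another gene on the opposite strand covered 11.2% of *Xist*.

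The libraries agreed for most genes. Of the 10783 genes with a mean count of at least 50, 8752 (81.2%) differed by less than 1.5-fold between the highest and the lowest library and 556 (5.16%) by more than 2-fold. Pairwise, 165 genes differed by more than 2-fold between wild type 1 and 2, 285 between 1 and 3, and 330 between 2 and 3. The median coefficient of variation (CV, the SD over the mean) was 10.3%. The biological coefficient of variation from edgeR, which sets aside counting error, was 0.153 from 1 dispersion common to 11945 genes. The median gene-wise dispersion of DESeq2, over genes with a mean count of at least 50, gave 0.0961, which is a different measure. The edgeR trend fell from 0.313 at mean counts of 10 to 50 to 0.0745 at 5000 or more.

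Part of the spread followed gene length. For the 3376 genes with 5000 or more exon bases, the median log2 ratio of a library to the mean of the 3 was 0.03, 0.08 and -0.14 in wild type 1, 2 and 3. For the 1085 genes under 1500 bases it was -0.05, -0.03 and 0.07. Wild type 3 was thus lower for long genes and higher for short ones. The median CV rose from 7.50% in the shortest class over 8.20% and 11.01% to 13.5% in the longest. The classes were not matched for level, with which the CV also changed, so the part of length in this rise was not tested.

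**Figure D3:**
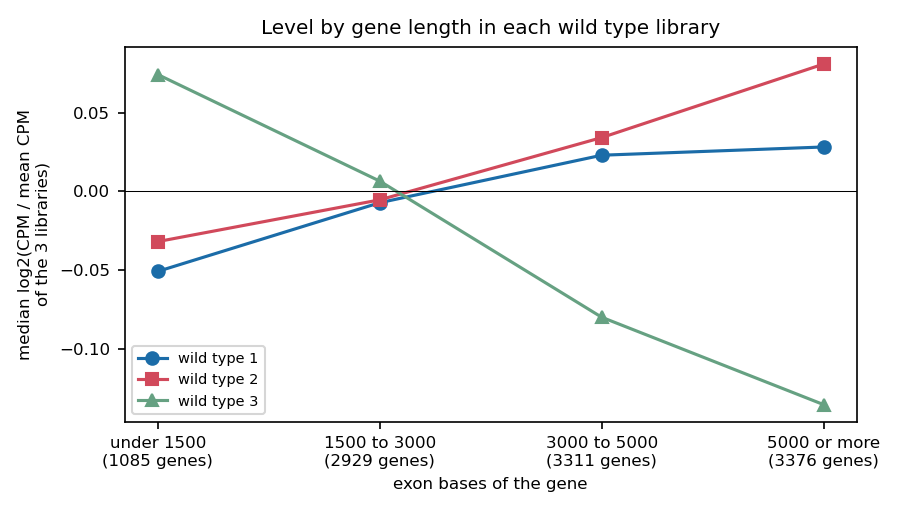
Median log2 ratio of each wild type library to the mean of the 3 libraries (vertical axis) for genes in 4 classes of exon length (horizontal axis), over genes with a mean count of at least 50. Wild type 3 runs from 0.07 in the shortest to -0.14 in the longest class, and wild type 2 the other way, from -0.03 to 0.08.

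The 20 genes that differed most for their level were ranked by their squared CV over that of the trend and counting error. The set depends on the libraries and the measure: 8 to 11 of the 20 stayed among the 20 highest when 1 library was left out, and 4 when genes were ranked by the range of log2(CPM + 1). *Spp1*, which encodes the secreted phosphoprotein osteopontin, led with 967, 149 and 100 counts in wild type 1, 2 and 3, at a ratio of 50.4. The median ratio over the 10775 genes ranked was 0.591. The nuclear noncoding RNA gene *Malat1* had 14076, 13688 and 7766 counts and the ratio 17.6. *Ccdc149* had 269, 81 and 38 counts. *Enpp2*, which encodes autotaxin, had 548, 223 and 190 counts and the endoderm factor gene *Hhex* 195, 68 and 36. These 3 and *Spp1* were high in wild type 1. The polarity gene *Llgl2* had 865, 1335 and 571 counts, the GABA enzyme gene *Abat* 633, 1147 and 586 (29.9% of its exon bases overlapped) and the brush border cadherin gene *Cdhr2* 235, 571 and 265. The myosin gene *Myo9a* had 245, 429 and 131 counts, *Stk11ip* 209, 428 and 147 and the endocytosis gene *Epn3* 84, 217 and 54. These 6 were high in wild type 2, as were the valyl-tRNA synthetase gene *Vars* (2154, 3128 and 1894) and the aldehyde dehydrogenase gene *Aldh1b1* (3443, 4617 and 2886). *Edn1*, the endothelin gene, had 4748, 3237 and 5495 counts and was the only one highest in wild type 3. *Plcb3* (2211, 2491 and 1301), *Actn4* (7720, 7177 and 5161), *Mta2* (4222, 4132 and 2792), *Dgkz* (2064, 1964 and 1212), *Dhx30* (1612, 1479 and 885) and *Cc2d1b* (1045, 984 and 512, 14.5% overlapped) completed the set, all lowest in wild type 3. Of the 20, 18 were lowest in wild type 3, 10 were highest in wild type 1 and 9 in wild type 2. Their median exon length was 4487 bases, against 3705 for all 10701 genes at that level with a length, and 8 of the 20 had 5000 bases or more against 3376 of 10701. The part of gene length in their spread was not tested. The gene just outside the set, *Mogs*, had a ratio of 7.54, against 7.62 for *Cc2d1b*.

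Another 8 genes with a mean count of at least 50 had too few counts in some library for that ranking, and were named after their values were seen. *Chgb*, *Neurog3* and *Pax4* are given above. The amino acid carrier gene *Slc38a5* had 806, 0 and 7 counts in wild type 1, 2 and 3, *Peg10* 159, 2 and 0 and *Asb4* 177, 7 and 6. These 3 were present almost in wild type 1 alone. *Gfra3*, the artemin receptor gene, had 0, 112 and 115 counts, with the same pattern as *Pax4*. *Kcnj16*, a potassium channel gene, had 86, 79 and 9 counts and was low in wild type 3 alone, as was *Chgb*. A mean over the 3 libraries hides these differences.

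**Figure D4:**
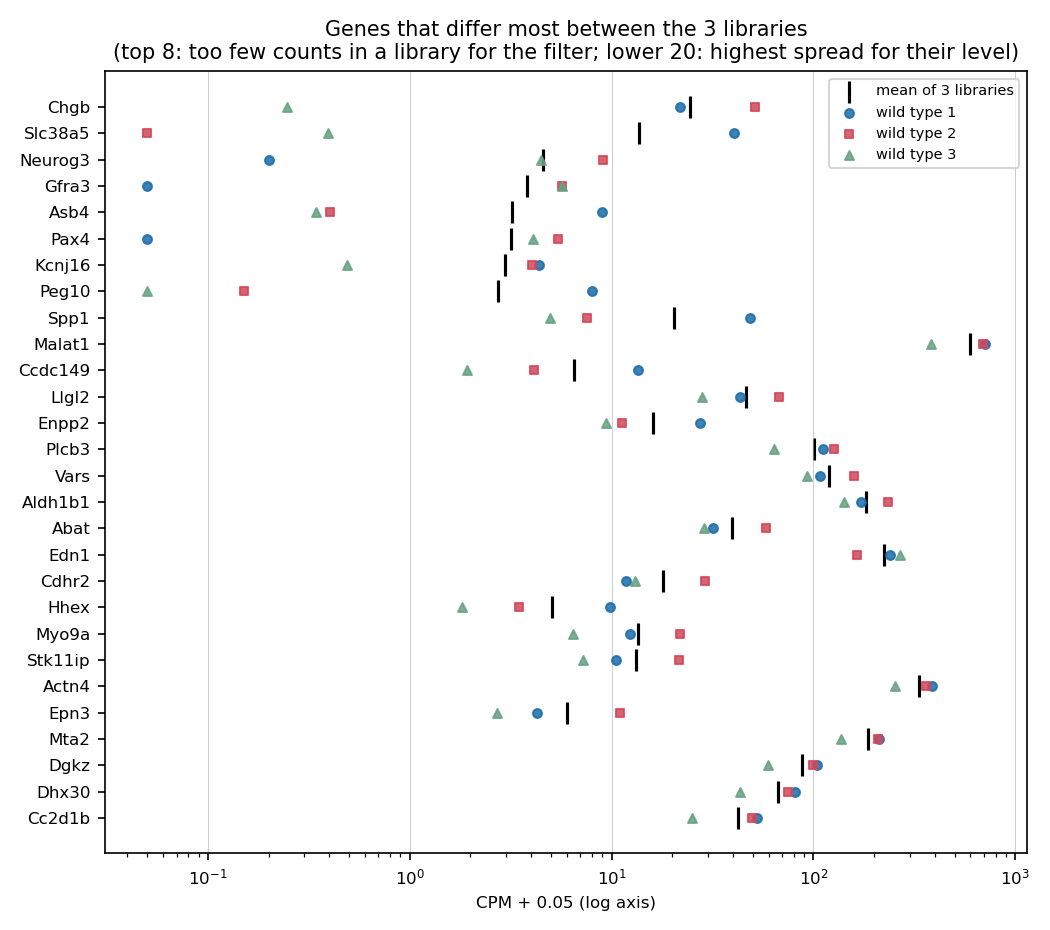
CPM plus 0.05 (log axis) in wild type 1, 2 and 3 (points) with the mean of the 3 libraries (bar) for the 8 genes left out of the ranking (top) and the 20 ranked highest (below). The 8 genes span from near 0 to between 4.32 and 51.5 CPM, *Spp1* from 4.90 to 48.6 CPM, and wild type 3 is the lowest point for 18 of the lower 20.

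The sequence around the start of genes differed with their level. In a window from 250 bases before to 50 bases after the annotated start, read from mm9 for 22000 genes, the median number of CG dinucleotides was 3 in genes with 0 counts, 8 in genes with a count but under 1 CPM, 18 at 1 to 10 CPM, 21 at 10 to 100 and 23 at 100 CPM or more. It was 13 over all genes and 25 in the 100 highest. TATAAA in the 50 bases before the start, on the strand of the gene, was found in 6.05% of genes with 0 counts and in 3.18%, 2.08%, 1.15% and 1.43% of the 4 rising classes, against 3.08% of all. The 100 highest genes held it in 5 cases (5%). CCAAT, searched on both strands as CCAAT or ATTGG, was in 35.0% of all windows and 47% of those of the 100 highest genes, and GGGCGG, searched on both strands as GGGCGG or CCGCCC, in 42.2% of all and 70% of those. The windows of the 5 markers held 11 (*Epcam*), 6 (*Krt8*), 15 (*Sox9*), 17 (*Cdx2*) and 3 (*Shh*) CG dinucleotides. GGGCGG holds a CG itself, so these measures overlap, and genes with near-identical copies can stand at 0 counts because only uniquely mapping reads were counted. The windows are those of 1 annotated start for each gene, and whether that start was used in these cells was not tested.

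**Figure D5:**
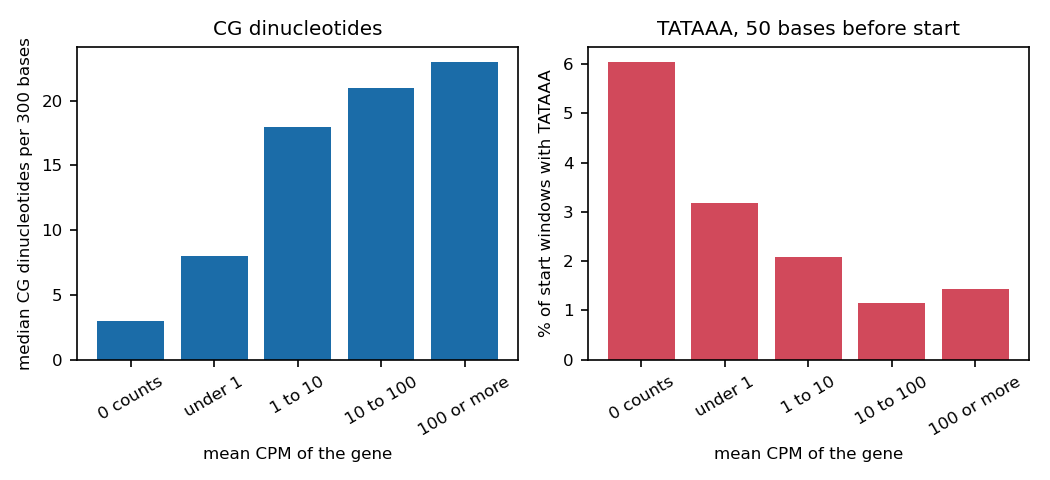
Median CG dinucleotides in the 300-base start window (left) and percent of genes with TATAAA in the 50 bases before the start (right) by mean CPM in the 3 wild type libraries (horizontal axis), as bars from 0. CG dinucleotides rise from 3 to 23 over the 5 classes, and TATAAA falls from 6.05% to 1.15% and stands at 1.43% in the highest class.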

How the data were processed

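PolyA RNA of the sorted cells was converted to cDNA (SMARTer v4 kit) and sequenced on a NextSeq 500 with reads of 84 bases. The authors mapped them with STAR 2.5.2b to mm9, used featureCounts 1.5.1 with a UCSC gene model on the reads that mapped uniquely, and deposited raw counts per gene; the strand setting is not given in the sources used here. The tables hold gene symbols, no coordinates.

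CPM were computed from library totals without further scaling. Symbols were matched to an mm9 annotation (94.2% of genes, 99.0% of expressed genes) for positions, merged exon lengths and exon overlap on the opposite strand; RPKM is CPM per kilobase of merged exons. Start windows used the longest transcript, coding ones first. The dispersion came from edgeR 4.0.16 (R 4.3.3; filterByExpr, intercept only), and the ranking used the squared CV over the trended dispersion plus 1 over the mean count. Both were run on counts simulated with 1 dispersion for all genes, where a true coefficient of 0.141 was estimated as 0.14. When 200 genes were given a much larger dispersion, they took all 20 highest ranks. The simulation held no trend with level and no effect of gene length. It therefore does not show how well either works on these data. Alternatives covered the filter on low counts, TMM and DESeq2 1.42.0 scaling, levels per length and each library left out in turn. Other steps used Python 3.11.15.

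With 1 group there was no test. The marker genes, the lists and the transcription factor patterns were chosen with earlier results of these data known. The text names the 5 markers, the 20 highest genes, the 20 highest factor genes by CPM and 10 by RPKM, the 6 highest members and those at 0 of each list, members of other cells' lists at 10 CPM, all HOX genes and the 20 variable genes. Members named beyond this were chosen after their values were seen. *Spi1*, *Prac1*, *Amy2a1*, *Sh2d6* and *Siglecf* were not analysed here. Some genes that the rule covers are not reported here.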

Additional observations from a re-analysis of the deposited data

How the results depend on the processing

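The number of expressed genes (11854) ranged from 9811 to 12648 over 8 alternatives, the lowest with a mean CPM of at least 5 and the highest with a mean count of at least 10. The number of expressed transcription factor genes (394) ranged from 292 to 397 over 6 alternatives; both stayed within 1.5 times of the values given. The share of the 100 highest genes was 19.9% when levels were taken per length, against 16.3% by counts. The biological coefficient of variation from edgeR was 0.186 with no filter beyond 1 count, against 0.153. Leaving out 1 library at a time gave 0.119 (without wild type 3) to 0.176 (without wild type 1). The DESeq2 value of 0.0961 is a different measure, from the median gene-wise dispersion of genes with a mean count of at least 50. Of the 20 variable genes, 12 were shared with the 20 highest by DESeq2 and 4 with the 20 highest by the range of log2(CPM + 1). With no filter on low counts beyond the mean count of 50, 13 were shared (an alternative added after the data were seen). When 1 library was left out, 8 to 11 were shared, the lowest without wild type 3. Apart from that difference in measure, the cause of these shifts was not tested. TMM scaling left all 32 list sums within 1 SD. Leaving out 1 library gave 96 sums at 0.883 to 1.15 of the value given. With 3 libraries such a shift cannot reach the SD between them, so the SD is no measure of it. Without its highest member every list sum moved by more than 1 SD, to between 0.0182 and 0.925 of the value given. No paired analysis was possible because only 1 group was described. A gene at 0 counts can have been present at up to 0.0499 CPM by the limit of 3 counts, and at up to 0.0614 CPM by the exact Poisson interval at 95%, and genes with near-identical copies or exons overlapped on the opposite strand remain uncertain.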

Other observations

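*Peg10* and *Asb4*, both present almost in wild type 1 alone, lay in the same imprinted region of chromosome 6 (mm9), with steadier genes between them. This was noticed after the values were seen. *Peg10*, a gene of retroviral origin expressed from the paternal copy, had 159, 2 and 0 counts in wild type 1, 2 and 3. *Sgce*, its paternally expressed neighbour, lies on the minus strand and *Peg10* on the plus strand, with 101 bases between their annotated starts. *Sgce* was present in every library, with 112, 31 and 68 counts. *Asb4*, expressed from the maternal copy, starts 622871 bases beyond *Peg10* and had 177, 7 and 6 counts. All 3 were highest in wild type 1. Genes around and between them differed less between the libraries: *Casd1* had 971, 922 and 1053 counts, *Ppp1r9a* 169, 161 and 178, *Pon3* 274, 233 and 229, *Pon2* 516, 500 and 576 and *Pdk4* 56, 41 and 83. They are not the only genes high in wild type 1, as given for the variable genes. In the lists of endocrine genes, 8 of the 14 hormone and granule genes with at least 30 counts were highest in wild type 1, 6 in wild type 2 and 0 in wild type 3. Over all genes with at least 30 counts, 31.3% were highest in wild type 1, 38.9% in wild type 2 and 29.8% in wild type 3. Over the genes with 30 to 1000 counts these shares were 34.4%, 44.3% and 21.3%, and 3 of the 14 had more than 1000 counts.

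The transcription factor genes at 0 counts had start windows rich in CG dinucleotides for their level. The median was 15 in 153 such genes and 24 in 393 expressed transcription factor genes, against 3 over all genes with 0 counts and 13 over all genes. At least 10 CG dinucleotides were present in 72.5% of the windows of transcription factor genes at 0 counts and in 16.2% of those of all genes at 0.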
